A study of Homo sapiens with 8 samples.

Results

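The HOX genes encode homeodomain transcription factors and lie in 4 clusters in the human genome. The results below cover 38 HOX genes, taken by symbol from a fixed list, out of 20163 protein-coding genes of the annotation. There were 10 genes of HOXA, 10 of HOXB, 9 of HOXC and 9 of HOXD. Each gene was examined over its body and 2000 bp upstream, and each cluster over its span, from the lowest to the highest coordinate of its listed genes. On hg19 (GRCh37), the HOXA span was chr7:27139973-27239710, the HOXB span was chr17:46605888-46806112, the HOXC span was chr12:54332615-54449814 and the HOXD span was chr2:176957449-177055635. The spans amounted to 515 kb.

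The cells were PC9, a human lung adenocarcinoma line, and were given DMSO or 1 μM GSK126, a small molecule inhibitor of the methyltransferase EZH2, for 5 days. All cells were kept in medium with fetal bovine serum, and a single cell line and a single dose were used. For each treatment there were 2 ChIP-seq libraries of trimethylated histone H3 lysine 27 (H3K27me3) and 2 of trimethylated lysine 4 (H3K4me3), which makes 8 libraries. D. melanogaster chromatin and an antibody to the fly histone H2Av had been added to each reaction, and 14 lists of enriched regions, termed islands, were deposited. The epithelial label of the line was compared with H3K4me3 at gene starts, which is found at active and poised promoters. An island lay at the start of 6 of 6 epithelial markers in both DMSO libraries, at 0 of 5 markers of B cells and leukocytes and at 1 of 4 markers of fibroblasts and endothelium (COL1A1).

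HOX genes specify position along the body axis. Within a cluster they are numbered from the end used in anterior tissues (low numbers) to the end used in posterior tissues (high numbers), and all genes of a human cluster are transcribed in the same direction. The clusters are classical targets of Polycomb. Polycomb repressive complex 2, of which EZH2 is the catalytic subunit, places H3K27me3 over silent HOX genes, whereas trithorax-group complexes place H3K4me3 at the starts of active ones, and both marks together are known from poised genes.

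Polycomb and trithorax complexes are both known to be directed to stretches rich in CG dinucleotides. The following starts show a gene with H3K27me3 alone and a gene with both marks in PC9 cells treated with DMSO, from 250 bases before to 50 bases after the start of the canonical transcript, read 5′ to 3′ on the strand of the gene with every CG in capitals. HOXD9, a posterior gene of HOXD, carried H3K27me3 (chr2:176987197-176987496, plus strand). HOXD8 carried both marks (chr2:176994183-176994482, plus strand).
HOXD9: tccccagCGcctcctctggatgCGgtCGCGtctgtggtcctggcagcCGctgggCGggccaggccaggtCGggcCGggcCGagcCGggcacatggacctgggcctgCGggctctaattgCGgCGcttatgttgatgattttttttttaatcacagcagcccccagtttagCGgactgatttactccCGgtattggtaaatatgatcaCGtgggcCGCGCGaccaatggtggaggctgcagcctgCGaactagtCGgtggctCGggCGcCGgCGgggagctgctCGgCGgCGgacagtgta
HOXD8: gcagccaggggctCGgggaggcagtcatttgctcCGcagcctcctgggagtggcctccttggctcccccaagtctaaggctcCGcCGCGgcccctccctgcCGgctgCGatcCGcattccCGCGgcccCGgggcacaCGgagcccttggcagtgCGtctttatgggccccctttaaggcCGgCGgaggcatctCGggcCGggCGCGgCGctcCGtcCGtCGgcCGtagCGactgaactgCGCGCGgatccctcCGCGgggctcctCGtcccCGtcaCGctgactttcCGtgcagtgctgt

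The start of HOXD9 held 28 CG dinucleotides and that of HOXD8 34. The CG count of the 38 starts ranged from 4 (HOXC6 and HOXD4) to 44 (HOXA13), with a median of 17.5, so both printed starts lie above it. The median over all 20163 protein-coding starts was 23, and 98.1% of them held at least 1 CG. By state in DMSO, the median was 23.5 for the 14 starts with H3K27me3 alone, 23 for the 5 with both marks, 17 for the 3 with H3K4me3 alone and 13.5 for the 8 with neither. The ranges of these sets overlapped, since starts with neither mark held 11 to 27 and starts with H3K27me3 alone held 4 to 36.

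Coverage was the percent of a span or gene that lay under islands. Islands were called by SICER in 200-bp windows from 2 versions of each pair of libraries. In the standard version both libraries of a replicate held the same number of human tags. In the spike-in version human tags had been removed according to the recovered fly tags, so that the H3K27me3 list of GSK126 rested on 4.33 times fewer tags than that of DMSO in replicate 1 and on 5.11 times fewer in replicate 2. The H3K4me3 lists of DMSO served for both versions, and their spike-in GSK126 lists rested on 1.20 and 1.15 times fewer tags. H3K4me3 replicate 2 was the shallower of the replicates, with 0.302 tags expected per window in DMSO against 1.77 in replicate 1. With 2 replicates the smallest p-value of a two-sided exact permutation test is 0.333, so differences are given for each replicate with their mean and SD, and no test was made.

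H3K27me3 covered the clusters unequally before treatment. In the spike-in lists of DMSO, HOXD was covered over 96.3% of its span in replicate 1 and 99.2% in replicate 2. HOXB was covered over 43.1% and 44.5%, HOXC over 36.7% and 41.0%, and HOXA over 24.6% and 28.0%. The values of HOXD did not overlap with those of any other cluster, and HOXA was below the other clusters in both replicates. The HOXB span is 200 kb long and includes the stretch from HOXB9 to HOXB13, where most of its H3K27me3 islands lay. The place of HOXB among the clusters without this stretch was not computed. The HOXD span held 2 islands in DMSO replicate 2, and one of them, 70.6 kb long with HOXD8, HOXD4, HOXD3 and HOXD1, ranked 359 of 35522 by score. Within the spans, 83.6% of the bases covered in either DMSO library were covered in both, and for HOXD this was 97.1%.

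With GSK126, spike-in coverage was lower in every cluster and in both replicates. Replicate 1 is given first in each of the following pairs of values. HOXA went from 24.6% to 11.3% and from 28.0% to 7.13%. HOXB went from 43.1% to 24.4% and from 44.5% to 23.4%. HOXC went from 36.7% to 13.3% and from 41.0% to 27%. HOXD went from 96.3% to 88.8% and from 99.2% to 84.7%. The treated and untreated libraries did not overlap in any cluster. Over all spans the difference was -17.4 ± 1.13 percentage points (SD, n = 2).

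The covered length with GSK126 was also taken as a percent of that with DMSO, whichever bases were covered. It was 88.8 ± 4.78% for HOXD, 54.7 ± 2.85% for HOXB, 51.0 ± 20.9% for HOXC and 35.8 ± 14.6% for HOXA. Over the whole genome the GSK126 lists covered 46.3% and 44.2% as many bases as the DMSO lists. HOXD was above these values in both replicates (92.2% and 85.4%), and so was the HOXB span with its stretch up to HOXB13 (56.7% and 52.6%). HOXA was below them in both (46.1% and 25.5%), and HOXC was below in replicate 1 (36.3%) and above in replicate 2 (65.8%).

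**Figure D1:**
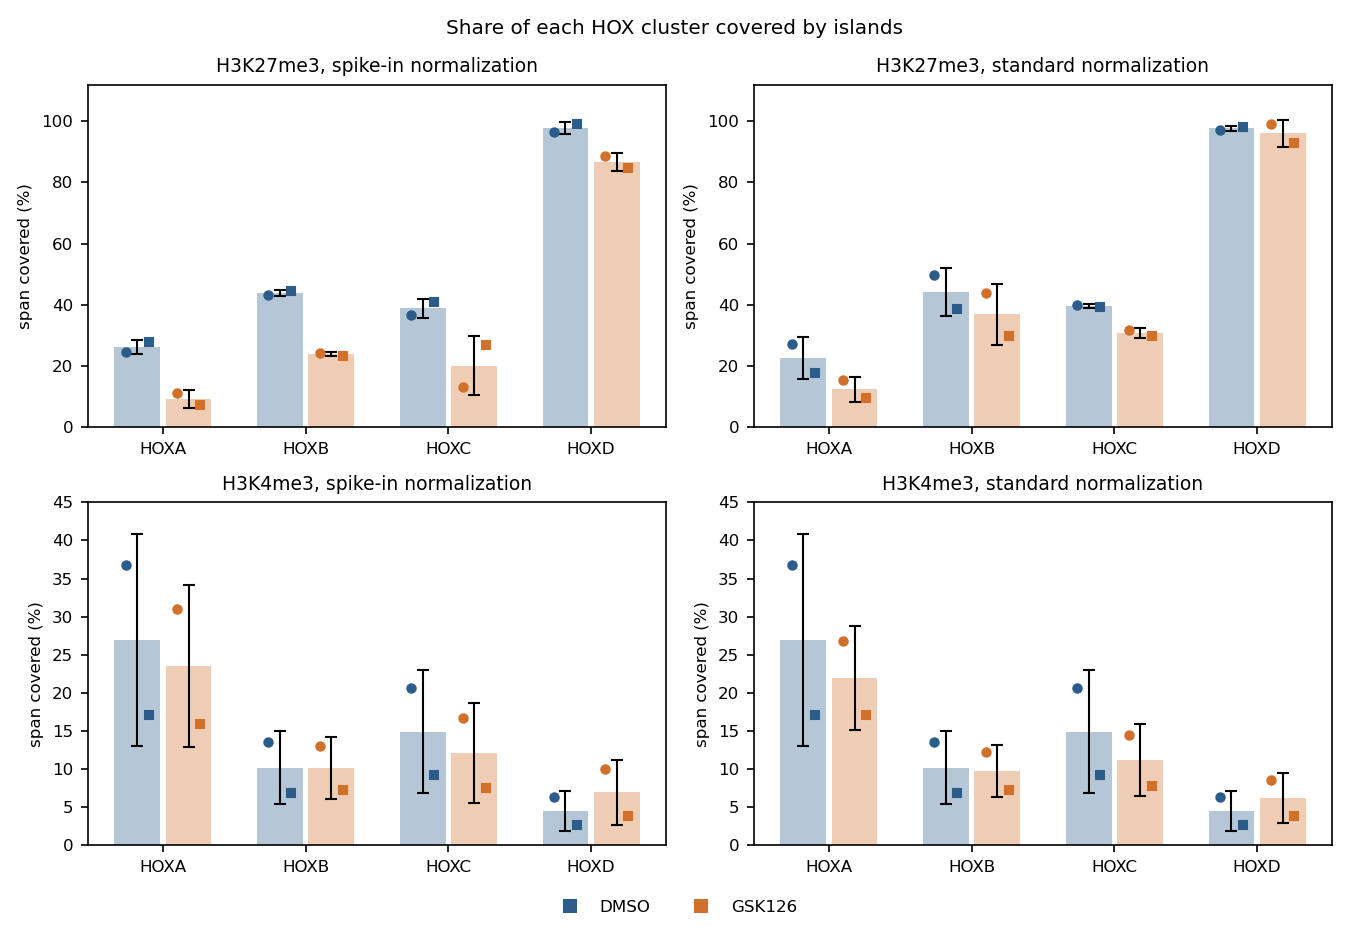
Percent of each HOX cluster span covered by islands (y axis) in cells given DMSO (blue) or GSK126 (orange), for H3K27me3 (top) and H3K4me3 (bottom) under the spike-in (left) and standard (right) normalization. Bars are means of 2 libraries, error bars are SD, circles are replicate 1 and squares replicate 2. The HOXD span stays above 84% for H3K27me3 in every library, and HOXA has the lowest H3K27me3 coverage in every panel of that mark.

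At equal tag numbers the differences were smaller. In the standard lists HOXA went from 27.4% to 15.4% and from 17.8% to 9.53%, HOXB from 49.9% to 44% and from 38.8% to 29.9%, and HOXC from 40.1% to 31.9% and from 39.3% to 29.7%. HOXD went from 97.1% to 99.2% and from 98.2% to 92.9%, so its replicates moved in opposite directions. Over all spans the difference was -7.16 ± 1.51 points. The 2 versions of a library differ in depth and in the lowest island score of their lists. In DMSO replicate 1 the lowest score was 56.7 in the standard list and 41.3 in the spike-in list. The standard list there rested on fewer tags (1.36 against 1.65 expected per window) and covered more of the spans (52.3% against 48.2%). In DMSO replicate 2 it also rested on fewer tags (1.55 against 2.33) and covered less (46.1% against 50.9%). The part of depth in the smaller differences was not tested. With the DMSO standard lists kept and the spike-in lists of GSK126 set against them, the difference was -17.0 ± 5.16 points.

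Gene by gene, 26 of the 38 HOX genes overlapped an H3K27me3 island in at least 1 of the 4 spike-in lists. A gene was called lower when its coverage was at least 10 percentage points lower with GSK126 in both replicates. By this rule 11 of 38 HOX genes were lower, 5 in HOXA, 3 in HOXB, 3 in HOXC and 0 in HOXD, beside 15.7% of all protein-coding genes. Among genes with an island the share was 11 of 26, beside 49% of 6456 genes. The median difference over the 38 genes was -6.11 points. By the same rule 0 HOX genes were higher, beside 0.0149% of all genes. Neighbouring HOX genes share islands and their windows overlap, so they are not independent.

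**Figure D2:**
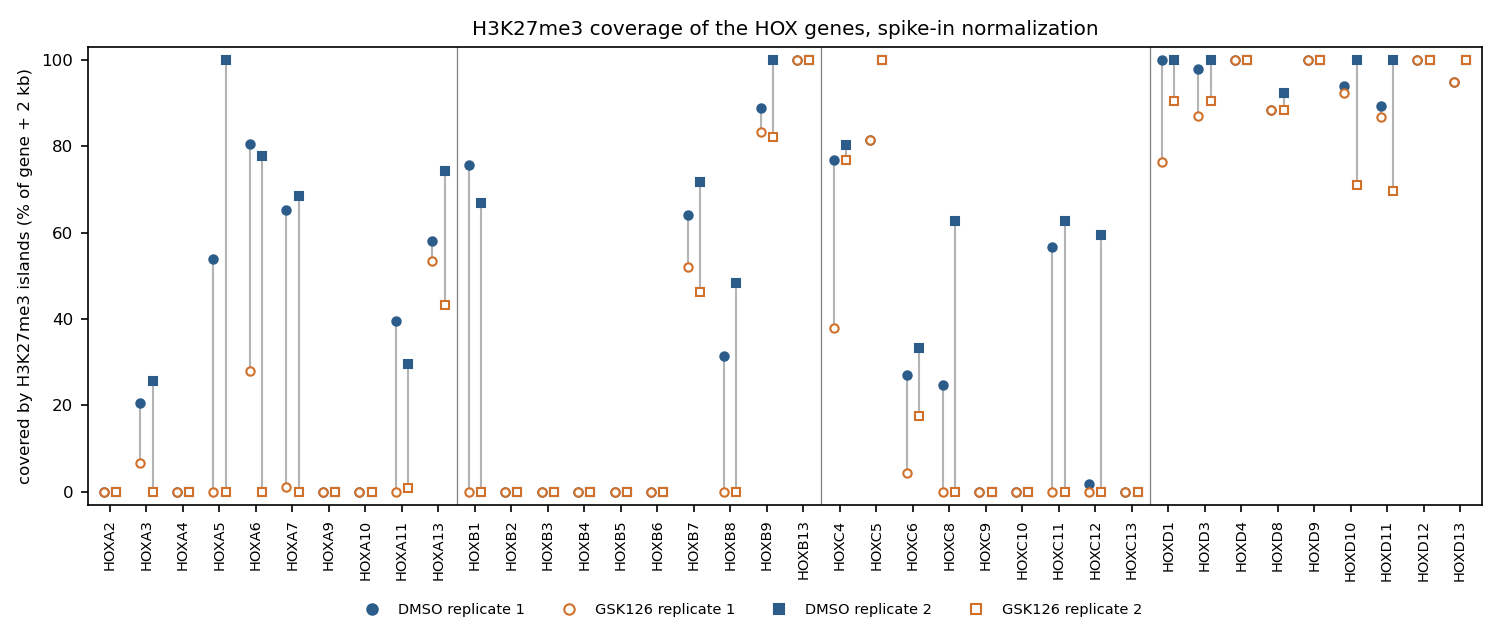
H3K27me3 coverage (y axis, percent of the gene body and 2 kb upstream under islands) of each HOX gene (x axis, by cluster and number) in the spike-in lists. Filled blue symbols are DMSO, open orange symbols GSK126, circles replicate 1 and squares replicate 2, and grey lines join the libraries of a replicate. HOXA5, HOXB1, HOXB8, HOXC8 and HOXC11 reach 0 in both GSK126 libraries, whereas HOXB13, HOXD4, HOXD9 and HOXD12 stay at 100% throughout.

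In HOXA, the largest differences lay in the central genes. HOXA5, which is needed for lung development, was covered over 54.0% and 100% in DMSO and over 0% and 0% with GSK126. HOXA6 was covered over 80.6% and 77.8% in DMSO and over 28.1% and 0% with GSK126. HOXA7 was covered over 65.4% and 68.6% in DMSO and over 1.06% and 0% with GSK126. These 3 genes neighbour each other. HOXA6 shared one island with HOXA5 and another with HOXA7 in DMSO, and for each of them the treatments did not overlap. HOXA3, whose long annotated gene reaches across this stretch, went from 20.7% to 6.61% and from 25.6% to 0%.

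At the posterior end of HOXA the genes differed from each other. HOXA11, which acts in limb, kidney and uterus development, went from 39.5% to 0% and from 29.6% to 0.839%. HOXA13, a gene of the distal limb and the genital tract, went from 58.1% to 53.6% and from 74.4% to 43.2%, and did not meet the rule because the difference in replicate 1 was -4.53 points. HOXA2, HOXA4, HOXA9 and HOXA10 had no H3K27me3 island in any spike-in or standard list.

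In HOXB, H3K27me3 islands overlapped HOXB1 and the genes from HOXB7 to HOXB13. HOXB1, a hindbrain gene, went from 75.8% to 0% and from 66.9% to 0%. HOXB8 went from 31.3% to 0% and from 48.2% to 0%. HOXB7, whose annotated gene extends upstream past HOXB9, went from 64% to 52.0% and from 71.7% to 46.3%. Its canonical transcript with 2000 bp upstream was covered over 0% in all 4 spike-in lists, so this difference lay outside it. All of the libraries with GSK126 were below all of the libraries with DMSO for these 3 genes. HOXB9 went from 88.9% to 83.3% and from 100% to 82.2%, and did not meet the rule in replicate 1. HOXB2, HOXB3, HOXB4, HOXB5 and HOXB6 had no island of this mark in any list.

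HOXB13, a prostate lineage factor that is set apart from the rest of HOXB, was covered over 100% in all 4 spike-in lists and all 4 standard lists. It lay in an island of 54.6 kb in DMSO replicate 1, ranked 412 of 35901 by score, and in an island of 54.2 kb in DMSO replicate 2, ranked 438 of 35522. In the spike-in lists of GSK126 its island was 8.8 kb long in replicate 1, ranked 1785 of 19812, and 46.4 kb long in replicate 2, ranked 275 of 16401.

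In HOXC, HOXC11 was covered over 56.6% and 62.8% in DMSO and over 0% in both GSK126 libraries. HOXC8, a thoracic gene, went from 24.8% to 0% and from 62.8% to 0%. HOXC6, whose annotated gene is 40.2 kb long, went from 27% to 4.28% and from 33.2% to 17.6%. Its canonical transcript with 2000 bp upstream went from 100% to 41.2% in replicate 1 and stayed at 100% in replicate 2, which does not meet the rule. HOXC12 was covered over 1.88% and 59.5% in DMSO and over 0% with GSK126, so its difference rested on replicate 2. HOXC5 was covered over 81.4% in DMSO and GSK126 of replicate 1 and over 100% in both libraries of replicate 2. HOXC4, whose annotated gene is 39.1 kb long, went from 76.9% to 38% and from 80.3% to 76.9%. Over its canonical transcript with 2000 bp upstream it went from 80.6% to 47.2% and from 100% to 75.8%, which meets the rule. HOXC9, HOXC10 and HOXC13 had no H3K27me3 island in any list.

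In HOXD, all 9 genes were covered over at least 88.4% in the spike-in lists of DMSO. HOXD4, HOXD9 and HOXD12 were covered over 100% in all 8 H3K27me3 lists, and HOXD13, a gene of the digits, over 94.8% in both libraries of replicate 1 and 100% in both of replicate 2 in the spike-in lists. The largest mean differences were those of HOXD1, HOXD11 and HOXD10. HOXD1 went from 100% to 76.3% and from 100% to 90.4%. HOXD11 went from 89.4% to 86.7% and from 100% to 69.7%. HOXD10 went from 93.9% to 92.4% and from 100% to 71.1%. HOXD3 went from 97.9% to 87% and from 100% to 90.5%, just short of the rule in replicate 2. HOXD8 went from 88.4% to 88.4% and from 92.4% to 88.4%. No HOXD gene met the rule, because in each at least 1 replicate differed by less than 10 points.

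Genes elsewhere with as much coverage before treatment were often lower with GSK126. Of 808 protein-coding genes covered over at least 90% in both DMSO libraries, 40.7% were lower, whereas of the 8 HOX genes at that level (7 of HOXD and HOXB13) 0 were. The HOXD genes share islands, so they are not independent in this count or in those below. HOXD1 and HOXD3 missed the rule in replicate 2 alone, at -9.55 and -9.51 points. In the standard lists 9 of 38 HOX genes were lower, 4 in HOXA, 3 in HOXB, 2 in HOXC and 0 in HOXD, beside 5% of all genes and 16.5% of genes with an island. Of these 9 genes, 8 were also lower in the spike-in lists. HOXA5, HOXC6 and HOXC11 were lower in the spike-in lists alone and HOXC12 in the standard lists alone. In the standard lists of DMSO, HOXA5 was covered over 75.6% and 2.16% and HOXC11 over 0% and 50.5%, and both were at 0% with GSK126. When islands were limited to those with at least 2 times the lowest score of their list, 7 HOX genes were lower in the spike-in lists and 1 in the standard lists. At least 90% coverage in both standard DMSO lists was found for 9 HOX genes, of which 0 were lower, beside 7.24% of 774 genes. In these lists 0 HOX genes were higher, beside 0.213% of all genes.

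The tags under the islands were read from the island scores. The island score of SICER sums, over the windows with enough tags to be eligible, how improbable the tag count was. In the standard lists, where the expected count is the same, it can be compared directly. The score per kb of the HOXD span was 63.3 in the DMSO library of replicate 1 and 118 in its GSK126 library, and 75.3 and 189 in those of replicate 2. On the log2 scale, GSK126 over DMSO amounted to 1.11 ± 0.30 in HOXD, 0.61 ± 0.19 in HOXB, 0.31 ± 0.08 in HOXC and -0.90 ± 0.49 in HOXA. The signs were the same in both replicates of each cluster. At equal tag numbers the score per kb was thus higher with GSK126 over HOXD, HOXB and HOXC and lower over HOXA. Read as tags per window, as described next, DMSO over GSK126 had a median of 0.687 and 0.497 over 8 HOX genes nearly filled with islands in the standard lists, beside 0.796 and 0.684 over 522 protein-coding genes filled to that degree.

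For the spike-in lists the score was converted to the number of tags per window that would give it. This reading was chosen after the data were seen, and it was limited to stretches nearly filled with islands. The limit picks stretches that kept their islands with GSK126, so a fold below that of the whole lists is partly built in. HOXD held the equivalent of 11.8 tags per window in DMSO replicate 1 and 4.22 in GSK126 replicate 1, and of 16.9 and 6.41 in the libraries of replicate 2. The same reading gave in the standard lists 9.63 in DMSO and 14.6 with GSK126 for replicate 1, and 11.4 and 21.0 for replicate 2, so fewer tags with GSK126 were read in the spike-in lists alone. In those lists the fold from GSK126 to DMSO was 2.80 and 2.64 (2.72 ± 0.112), whereas the tag numbers of the lists themselves differed 4.33-fold and 5.11-fold. The standard and spike-in lists of the same library, which differ in depth and lowest score, gave tag ratios within 3.83% of the ratio of their depths. These depths were themselves fitted to island scores of the same lists, so the check is not independent.

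The same reading was possible for 5 HOX genes covered over at least 90% in all 4 lists. HOXD4 had a fold of 2.21 and 1.98, HOXD9 of 2.60 and 2.05, and HOXB13 of 2.36 and 2.29. HOXD12 had a fold of 3.66 and 3.83, and HOXD13 of 2.73 and 3.83. The median of the 5 genes was 2.60 in replicate 1 and 2.29 in replicate 2, beside 2.87 and 2.75 over 238 protein-coding genes filled to the same degree. Values of HOX genes in the same island are the same measurement, and the 5 genes lay within the range from the 5th to the 95th percentile of the 238 in both replicates.

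**Figure D3:**
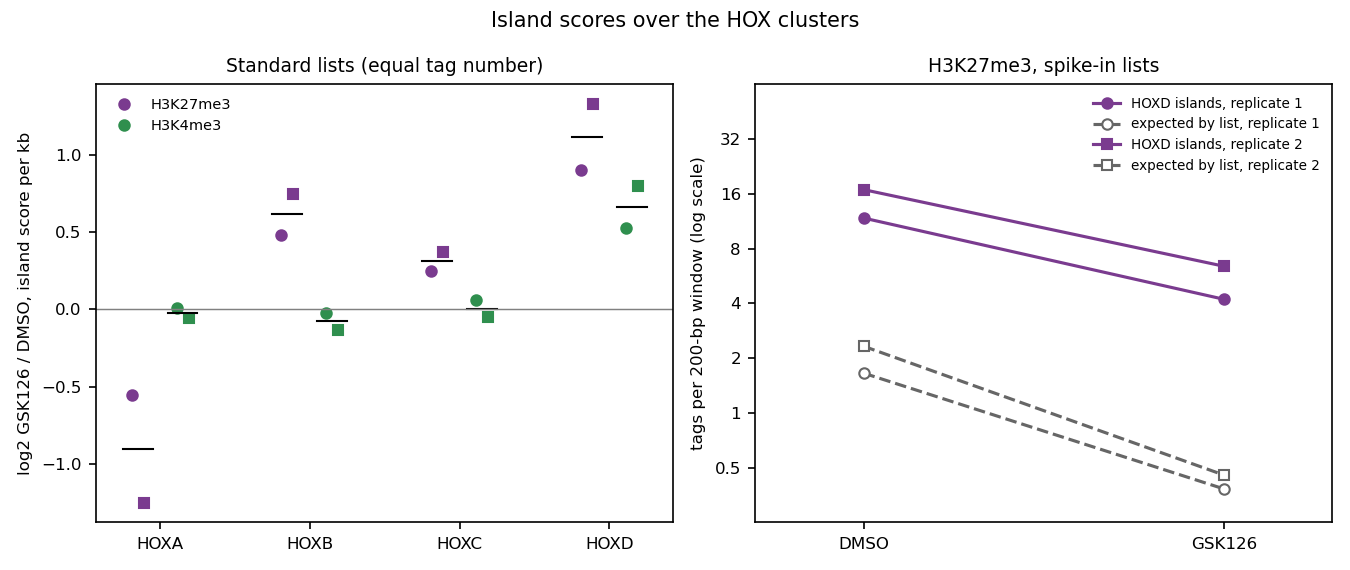
Left, log2 ratio of the island score per kb, GSK126 over DMSO, for each cluster in the standard lists, with circles for replicate 1, squares for replicate 2, black lines for means, purple for H3K27me3 and green for H3K4me3. Right, H3K27me3 tags per 200-bp window on a log scale, as read from the island scores over HOXD (purple) and as the density of the whole list (grey), in the spike-in lists. DMSO exceeds GSK126 2.80-fold and 2.64-fold on the HOXD lines and 4.33-fold and 5.11-fold on the grey lines, which are steeper. HOXD was read because it stayed nearly filled with islands, a choice that favours a smaller fold.

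Over the same spans, with the stretch from HOXB9 to HOXB13 in that of HOXB, H3K4me3 was distributed in the opposite order. In DMSO it covered 36.8% and 17.2% of HOXA, 20.6% and 9.20% of HOXC, 13.6% and 6.79% of HOXB and 6.31% and 2.65% of HOXD. The order of the clusters was the same in both replicates, and every value of the shallower replicate 2 was lower, which moves with its lower tag density. The part of depth in this was not tested. Of the bases covered in either DMSO library, 46.8% were covered in both.

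H3K4me3 coverage differed little between the treatments. Spike-in coverage over all spans went from 18.3% to 16.7% and from 8.56% to 8.36%, a difference of -0.873 ± 0.960 points, which is within the spread between replicates. In the standard lists the difference was -1.67 ± 2.52 points. HOXD was higher with GSK126 in both replicates and both versions, and HOXB was higher by 0.499 points in replicate 2 of both versions. HOXD went from 6.31% to 9.98% and from 2.65% to 3.87% in the spike-in lists, and from 6.31% to 8.56% and from 2.65% to 3.87% in the standard lists. The H3K4me3 score per kb of HOXD in the standard lists was 12.9 in DMSO and 18.5 with GSK126 for replicate 1, and 2.01 and 3.50 for replicate 2, a log2 ratio of 0.66 ± 0.19. The log2 ratios of the other clusters were -0.03 ± 0.05 for HOXA, -0.08 ± 0.08 for HOXB and 0.00 ± 0.08 for HOXC.

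Within HOXD, H3K4me3 was found at 2 places in both DMSO libraries, at HOXD8 and between HOXD13 and HOXD12. The latter island, at chr2:176961001-176964000 in replicate 1, was 3.0 kb long in DMSO and 3.4 kb with GSK126 in the spike-in list, and in replicate 2 it was 1.4 kb and 2.4 kb long. HOXD8 was covered by H3K4me3 over 64% and 24.0% in DMSO and over 79.5% and 28.0% with GSK126 in the spike-in lists. It was covered with GSK126 in the standard lists over 63.6% and 28.0%, and the island between HOXD13 and HOXD12 was 3.0 kb long in replicate 1 and 2.4 kb in replicate 2. An island of 1.8 kb near HOXD10 was present in the spike-in list of GSK126 replicate 1 alone.

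**Figure D4:**
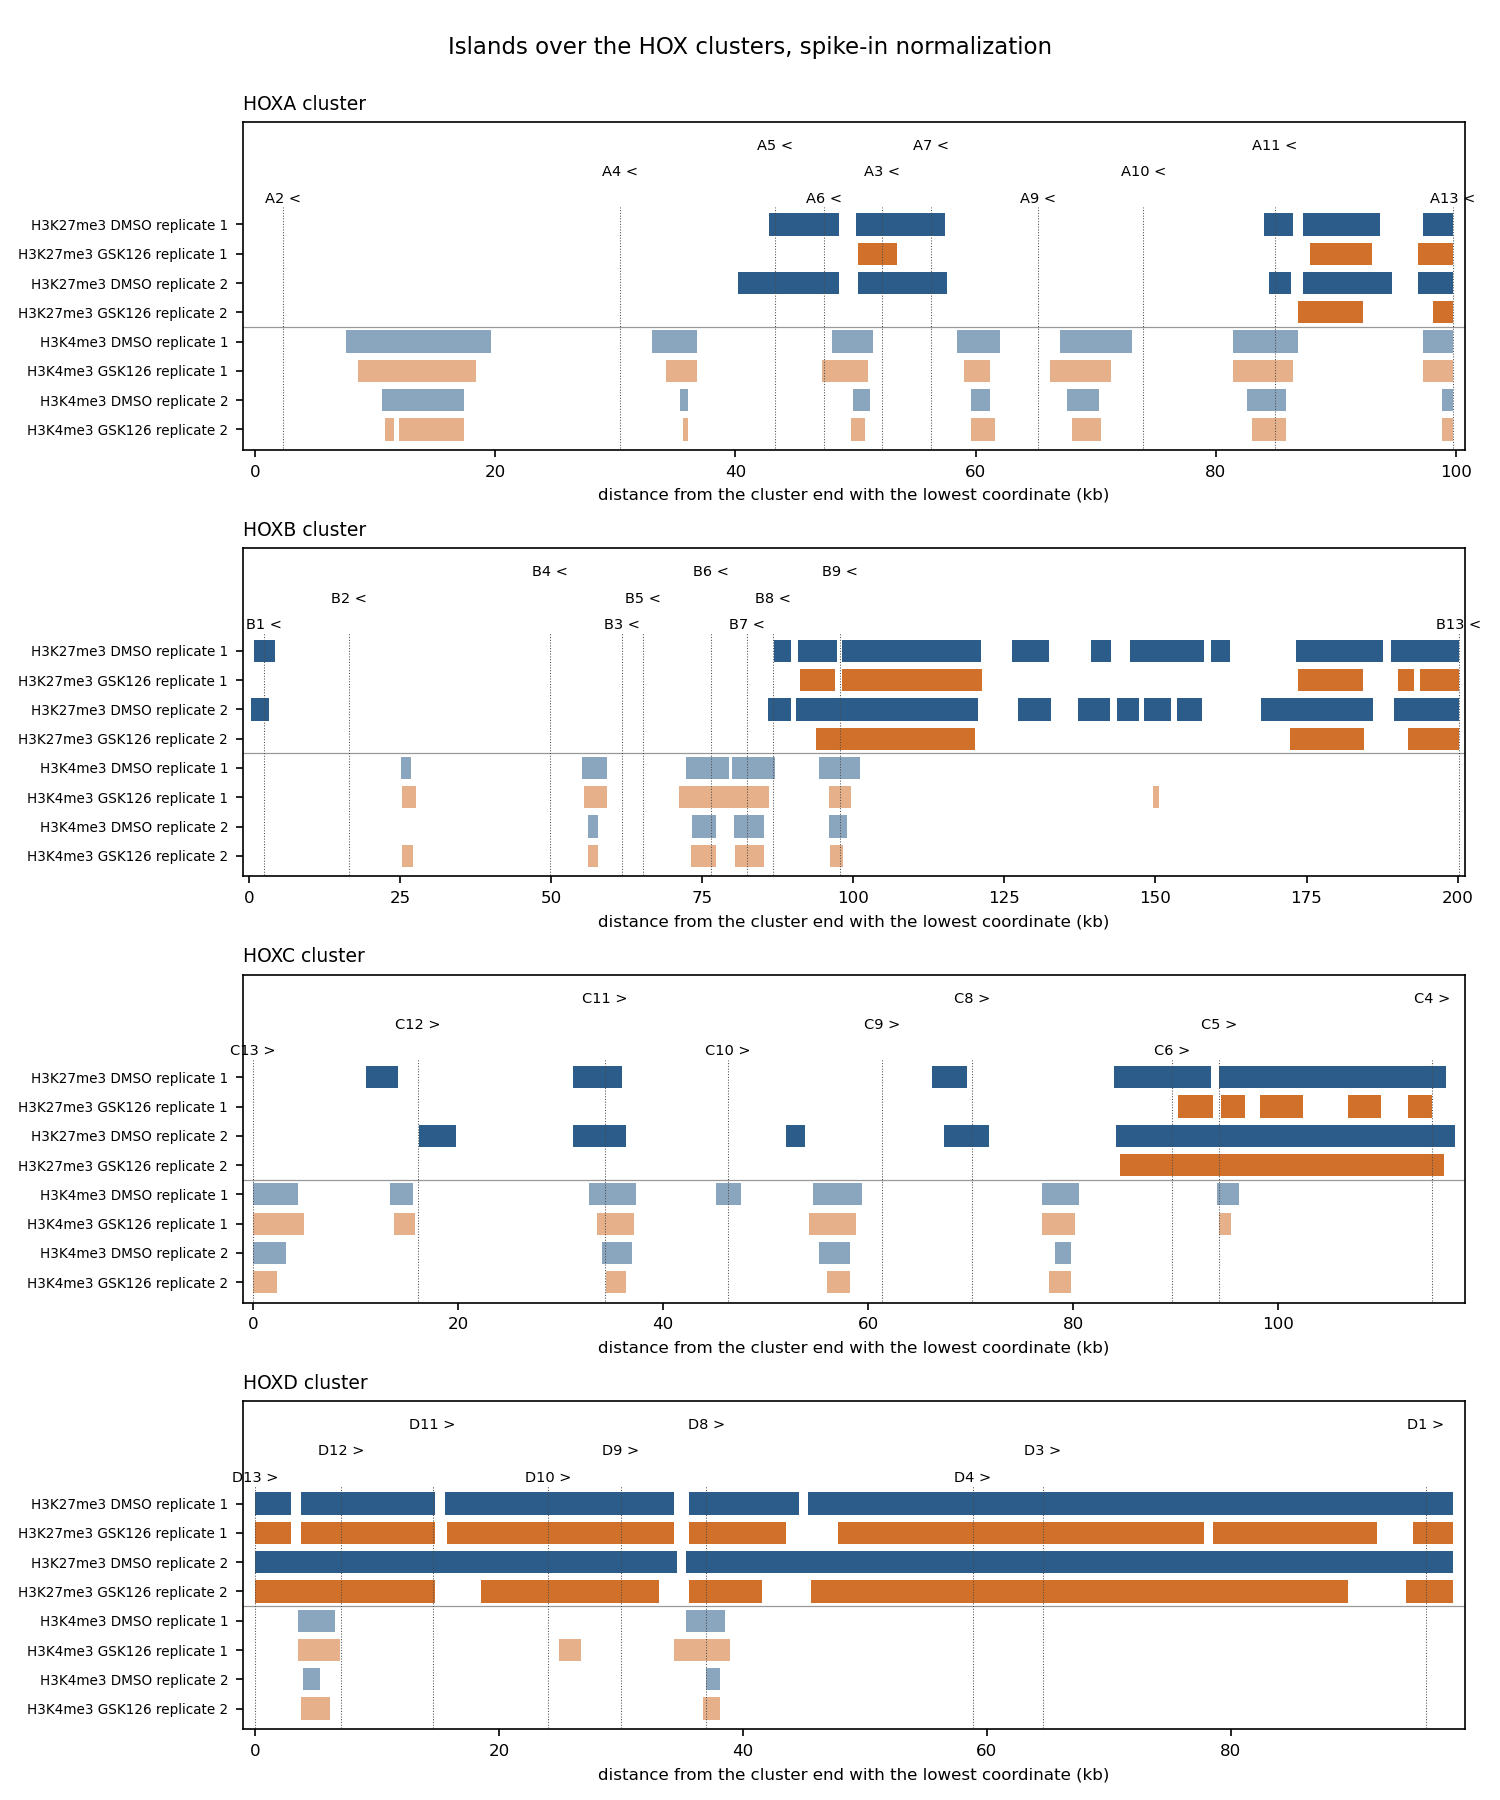
Islands over the HOX clusters in the 8 libraries, in the spike-in lists and the single H3K4me3 lists of DMSO, with distance in kb from the end of the cluster that has the lowest coordinate on the x axis and 1 library per row. Blue is DMSO and orange GSK126, H3K27me3 is above the grey line and H3K4me3, in paler colours, below it, dotted lines mark canonical starts, and the sign after each gene name gives the strand. H3K27me3 fills HOXD in all 4 libraries and lies in separate blocks in HOXA, HOXB and HOXC.

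The overlap of the marks is given beside the H3K27me3 coverage of each span, since a share near that coverage needs no link between the marks. In DMSO, 93.5% and 100% of the H3K4me3 bases of HOXD lay inside H3K27me3 islands, which covered 96.3% and 99.2% of the span, and nothing is read from this share. The share was 18.8% and 19.3% in HOXA at a coverage of 24.6% and 28.0%, 22.8% and 22.1% in HOXB at 43.1% and 44.5%, and 24.8% and 22.3% in HOXC at 36.7% and 41.0%. With GSK126 in the spike-in lists it was 10.7% and 5.72% in HOXA, 10.0% and 15.1% in HOXB, 5.11% and 0% in HOXC, and 85.7% and 100% in HOXD. Neither mark covered 38.3% and 42.7% of the spans in DMSO and 54.6% and 60.2% with GSK126.

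At gene starts, taken as 1000 bp on either side of the canonical start, H3K27me3 was present in both DMSO libraries for 24 of 38 HOX genes, beside 18% of all protein-coding genes. H3K4me3 was present in both DMSO libraries for 8 of 38, beside 61.9% of all genes. It lay at 16 HOX starts in replicate 1 and at 8 in the shallower replicate 2. H3K27me3 alone was found at 14 starts, namely HOXA5, HOXA7, HOXB1, HOXB13, HOXC4, HOXC6, HOXC8, HOXD1, HOXD3, HOXD4, HOXD9, HOXD10, HOXD11 and HOXD13. Both marks were found at HOXA11, HOXA13, HOXB9, HOXC11 and HOXD8, and H3K4me3 alone at HOXB6, HOXB7 and HOXC13. Neither mark was found at HOXA2, HOXA4, HOXA9, HOXB2, HOXB3, HOXB4, HOXB5 and HOXC9. The other 8 starts, HOXA3, HOXA6, HOXA10, HOXB8, HOXC5, HOXC10, HOXC12 and HOXD12, had H3K4me3 in DMSO replicate 1 alone. Of these, HOXA3, HOXA6, HOXB8, HOXC5 and HOXD12 had H3K27me3 in both DMSO libraries, and HOXC12 had it in replicate 2 alone. The part of depth in these states was not tested. Over all protein-coding genes the shares were 12.1% with H3K27me3 alone, 4.98% with both, 55.4% with H3K4me3 alone and 21.5% with neither.

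Of the 24 starts with H3K27me3 in both DMSO libraries, 15 kept an island in both GSK126 libraries of the spike-in version, and 8 had none in either, beside 34% of all such starts. The 8 were HOXA5, HOXA6, HOXA7, HOXA11, HOXB1, HOXB8, HOXC8 and HOXC11, and HOXA3 kept an island in replicate 1. All 9 HOXD starts kept it, as did HOXA13, HOXB9, HOXB13, HOXC4, HOXC5 and HOXC6. In the standard lists 5 of 22 starts had none with GSK126, beside 9.91% of all such starts. All 8 starts with H3K4me3 in both DMSO libraries kept it with GSK126 in both versions, and of all such starts 0.144% had none with GSK126 in the spike-in lists and 0.0802% in the standard lists.

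The genes that carried H3K4me3 at the start are described by their covered percent. HOXA11 had 88.9% and 52.7% in DMSO and 82.3% and 46.1% with GSK126. HOXB9 had 76.6% and 41.6% in DMSO and 52.8% and 30.5% with GSK126. HOXC11 had 70.6% and 46.0% in DMSO and 55.2% and 30.7% with GSK126. HOXB9 and HOXC11 were the 2 HOX genes lower by at least 10 points in both replicates, beside 1.05% of all genes in the spike-in lists and 1.03% in the standard lists, and their values overlapped between treatments. Neither was lower by the rule when the upstream stretch was left out, or when the replicates were crossed.

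The remaining genes with H3K4me3 at the start varied between replicates. HOXC13, known from hair and nail development, had 55.6% and 41.2% in DMSO and 59.7% and 24.7% with GSK126. HOXB6 had 54.7% and 35.6% in DMSO and 65.4% and 37.4% with GSK126. HOXB7 had 52.2% and 28.2% in DMSO and 39.5% and 24.7% with GSK126. HOXA13 had 52.5% and 27.9% in DMSO and 48.9% and 21.0% with GSK126. For H3K4me3, 0 HOX genes were higher by 10 points in both replicates, beside 0.0496% of all genes in the spike-in lists and 0.0446% in the standard lists.

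**Figure D5:**
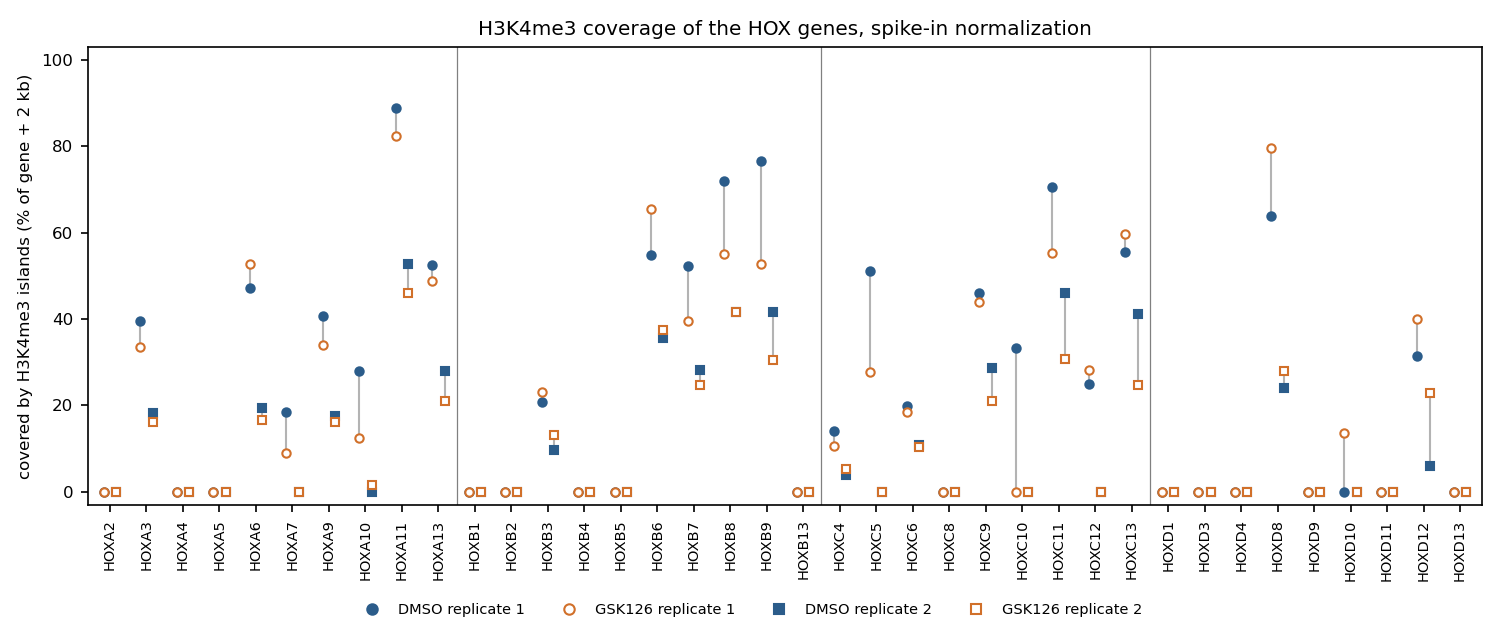
H3K4me3 coverage (y axis, percent of the gene body and 2 kb upstream under islands) of each HOX gene (x axis, by cluster and number), with GSK126 in the spike-in lists and DMSO in its single lists. Symbols are as for H3K27me3, with filled blue for DMSO, open orange for GSK126, circles for replicate 1 and squares for replicate 2. HOXA11 has the highest value in DMSO replicate 1 at 88.9%, and 6 of the 9 HOXD genes are at 0 in every library shown.

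Several HOX genes carried no island at all. HOXA2, HOXA4, HOXB2, HOXB4 and HOXB5 had no island of either mark in any of the 14 lists. The start of HOXB5 lay 5.94 kb from the nearest H3K4me3 island and 21.7 kb from the nearest H3K27me3 island in DMSO replicate 1. HOXA9 and HOXC9 had no island at the start but were covered by H3K4me3 elsewhere in the long annotated gene. In DMSO this was over 40.7% and 17.6% for HOXA9 and over 46.0% and 28.7% for HOXC9. The nearest H3K4me3 island lay upstream of the canonical start, by 1.85 and 2.45 kb for HOXA9 and by 1.95 and 3.15 kb for HOXC9. The island of HOXA9 in replicate 1 also overlapped HOXA10. HOXB3 was covered by H3K4me3 over 20.8% and 9.65%. Its annotated gene is 56.0 kb long, against 41.4 kb for its canonical transcript, and in both DMSO libraries 1 of its islands also overlapped HOXB6. HOXA10 and HOXC10 carried H3K4me3 at the start in DMSO replicate 1 alone.

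The HOX clusters also hold microRNAs that target HOX mRNAs, among others. The mature forms below, from RefSeq, are shown with bases 2 to 8, the seed that pairs with targets, in capitals. The sequences of miR-196a and miR-196b share a seed, and differ by A12C, with the base of miR-196a first and positions counted from the 5′ end. The miR-196a sequence is encoded at MIR196A1 in HOXB and at MIR196A2 in HOXC, and miR-196b at MIR196B in HOXA.
hsa-miR-196a-5p: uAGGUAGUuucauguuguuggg
hsa-miR-196b-5p: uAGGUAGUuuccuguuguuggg
hsa-miR-10b-3p: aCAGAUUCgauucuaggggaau
hsa-miR-615-3p: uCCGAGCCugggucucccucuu

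The loci of this seed family differed in their marks. MIR196A1 (chr17:46709852-46709921), between HOXB9 and HOXB13, was covered by H3K27me3 over 100% in all 4 spike-in lists and by no H3K4me3 island. MIR196A2 (chr12:54385522-54385631), which encodes the same mature sequence, was covered by H3K27me3 over 0% and 48.9% in DMSO and 0% with GSK126. MIR196B (chr7:27209099-27209183), between HOXA9 and HOXA10, had no H3K27me3 and was covered by H3K4me3 over 100% and 52.9% in DMSO and over 100% and 62.4% with GSK126. MIR10B in HOXD was covered by H3K27me3 over 100% in all 4 lists, and MIR615 at HOXC5 over 61.8% in both libraries of replicate 1 and 100% in both of replicate 2. These windows included 2000 bp upstream of each hairpin, and the lists hold no measure of transcription.

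Of 22 noncoding RNA genes of the clusters, microRNAs included, an H3K27me3 island overlapped 12, of which 5 were lower by the rule (41.7%), beside 49% of the protein-coding genes with an island. At equal tag numbers 2 of 11 were lower, beside 16.5%. Besides MIR196A1 and MIR10B, HAGLR, HAGLROS and HOXB-AS4 were covered over 100% in both DMSO libraries. HAGLR, an antisense RNA of HOXD, was covered over 85.9% and 82.2% with GSK126, and HAGLROS and HOXB-AS4 over 100%. HOTAIR, which lies between HOXC12 and HOXC11 and is known as a partner of Polycomb in trans, was covered over 32.8% and 35.5% in DMSO and over 0% with GSK126. Its island was the one that overlapped HOXC11. In the standard lists HOTAIR was at 0% in both libraries of replicate 1 and went from 30.0% to 0% in replicate 2. HOTTIP, at the posterior end of HOXA, was covered over 90.6% and 94.3% in DMSO and over 86.8% and 69.3% with GSK126. HOTAIR and HOTTIP were named outside the rule for named genes, after their values were seen.

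Other genes of the HOX pathway were read from lists. Of 9 cofactors of the PBX, MEIS and PKNOX families, which bind DNA with HOX proteins, 2 carried H3K27me3, and H3K4me3 lay at the start of 8 in both DMSO libraries. MEIS3 was covered by H3K27me3 over 100% in all 4 spike-in lists, and PKNOX2 was lower with GSK126, from 68.7% to 31.1% and from 75.9% to 35.5%. Of 8 ParaHox and EVX genes, the homeobox relatives and neighbours of the HOX clusters, all 8 carried H3K27me3 and 3 were lower. EVX1, next to HOXA13, had 100% and 100% in DMSO and 100% and 98.9% with GSK126, and GSX1 had 100% in all 4 lists. EVX2, next to HOXD13, went from 90.6% to 64.7% and from 90.6% to 43.5%.

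The retinoic acid pathway, which activates anterior HOX genes in embryos, contributed 12 genes, of which 6 carried H3K27me3 and 3 were lower. RXRG went from 41.4% to 0% and from 50.8% to 13.4%. CYP26B1, which degrades retinoic acid, went from 41.8% to 0% and from 38.9% to 0%, and CYP26A1 from 31.2% to 0% and from 37.4% to 0%. Of 13 genes next to the clusters, EVX1 and EVX2 included, 8 carried H3K27me3 and 3 were lower. Beside the 49% of all protein-coding genes with an island, 3 of 6 retinoic acid genes, 3 of 8 ParaHox and EVX genes, 3 of 8 neighbours and 1 of 2 cofactors with an island were lower, counts too small to read against it. In the standard lists 1 of the cofactors, 0 of the ParaHox and EVX genes, 0 of the retinoic acid genes and 0 of the neighbours were lower.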

How the data were processed

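The material was a set of island lists from 8 ChIP-seq libraries of PC9 cells. Per the methods of the study, single-end tags of 50 nt were mapped to hg19 (GRCh37) by BWA with default settings, duplicates and tags without a unique position were discarded (SAMtools 0.1.18 is named in the submitters' processing notes), and human tags were removed at random for the standard or the spike-in normalization. The authors then called islands per library with SICER 1.1 against a random background (E-value 1, 200-bp windows, gaps of 600 bp for the H3K27me3 lists and of 200 bp for the H3K4me3 lists). The deposited value of each island is its score. Each window with enough tags to be eligible adds to it the negative logarithm of the Poisson probability of its tags. The lists hold no tag counts. The tags expected per window were fitted to the scores of the shortest islands, and were 0.382 to 2.33 in H3K27me3 lists and 0.263 to 1.77 in H3K4me3 lists. An absent island therefore means that no enrichment was detected at that depth.

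Covered bases were computed with Python 3.11.15, NumPy 2.4.6 and SciPy 1.17.1 on genes of GENCODE 44 mapped to GRCh37, and Matplotlib 3.10.9 drew the plots. Gene starts were those of canonical transcripts. Fits, calls and tag readings were tested on simulated data. Replicates were numbered in accession order, which is also the order of the study, and were paired because tags had been removed within a replicate. Paired standard lists had equal expected tags per window (1.36, 1.55, 1.77 and 0.302). The study calls its replicates biological, and the labels do not say whether they were separate cultures.

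The HOX genes, the other lists and the comparisons were chosen with earlier results of these data known. Named genes were the 3 per cluster with the largest mean H3K27me3 difference, those with H3K4me3 at the start in both DMSO libraries, those without H3K27me3 in DMSO, and up to 3 per other list by coverage in DMSO. Further members are given to account for each cluster. Alternatives were a higher score minimum, longer islands, other gene stretches, spans, point limits and list pairs, and fits without either replicate or without the pairing. Canonical transcripts, changes at gene starts and tags per window were added after the data were seen. MicroRNA sequences were from RefSeq. The sequences of further gene starts are not reported here. MIR10A and PECAM1, not matched by symbol, were not used.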

Additional observations from a re-analysis of the deposited data

How the results depend on the processing

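Of the 83 alternative values, the mean direction of the H3K27me3 differences was kept in all those of coverage and score over the summed spans. A score at least 2 times the lowest of the list gave -15.5 points for spike-in H3K27me3 coverage and -2.99 (SD 5.49) for standard coverage, where replicate 1 was at 0.890 and replicate 2 at -6.87, and 7 spike-in and 1 standard HOX gene lower, with 4 gene starts that lost H3K27me3. The standard lists gave 5 such starts. Counting any difference above 0 gave 19 genes for spike-in H3K27me3. Canonical transcripts with 2000 bp upstream gave 10, with HOXC4 added and HOXB7 and HOXC6 left out. For H3K4me3, where 2 genes were lower, any difference gave 9 spike-in and 8 standard genes, at least 20 points gave 0 and 0, the gene body alone 0 and 0, and 5000 bp upstream 1 and 1. No replicate block, with the replicates crossed, gave 12 and 7 genes for spike-in and standard H3K27me3, and 0 and 0 for H3K4me3, whose replicates differ in depth. For coverage and score, leaving out the block left the means as they were. Leaving out each replicate gave 14 to 16 and 11 to 12 genes for H3K27me3, and 3 to 7 spike-in and 2 to 11 standard genes for H3K4me3, with the highest counts without replicate 2. It gave -18.2 to -16.6 and -8.23 to -6.10 points for H3K27me3 coverage, -1.55 to -0.194 points for spike-in H3K4me3, and -3.45 to 0.116 points for standard H3K4me3, which reversed without replicate 1. The H3K4me3 score ranged from -0.0546 to 0.0236 on the log2 scale and reversed without replicate 2. For HOXD alone, standard H3K27me3 coverage differed by 2.04 points without replicate 2 and by -5.30 without replicate 1. The H3K27me3 score ranged from 0.66 to 1.03. The causes of these shifts were not tested.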
